A study of Rattus norvegicus with 9 samples.

Results

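The genes described here are the CCAAT/enhancer-binding proteins (C/EBPs), a family of transcription factors, in the superior mesenteric artery (SMA) of the rat. They were taken by gene symbol from a table of RNA sequencing counts. The symbols were Cebpa, Cebpb, Cebpd, Cebpg and Cebpz, 5 of the 37203 gene symbols in the table. All 5 passed the filter on low counts and were among the 15482 genes tested. The study asked how vascular gene expression differed between phases of ischemia, and it measured SMA tissue of Sprague-Dawley rats that were 8 weeks old. There were 9 libraries in 3 groups of 3, namely normal rats, rats at the early stage of ischemia (1 h) and rats at the late stage (4 h). Ischemia was a hemorrhage model in which anaesthetised rats were bled from a femoral artery, and the hours count from the set-up of that model. The normal libraries served as the control of both ischemic groups.

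C/EBP proteins bind DNA as dimers through a basic region and a leucine zipper, and members of the family can pair with each other. C/EBPα is known for holding cells in a differentiated state, above all fat cells, liver cells and myeloid cells. C/EBPβ and C/EBPδ are best known as inducible members that respond to cytokines and stress and act on acute-phase and inflammatory genes, while C/EBPγ lacks a strong activation domain and pairs with ATF4 and with other C/EBPs. The protein made from Cebpz carries the family name but has no such zipper, and it is known as a nucleolar factor that takes part in ribosome assembly.

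Values are CPM, read counts scaled to the size of each library after correction by the TMM method, where 1 CPM stood for 12.1 to 17.9 counts, and total counts ran from 13114273 to 15504240 per library. The tissue label was checked against 8 smooth muscle markers, all of which were tested, and their summed level ran from 11206 to 68642 CPM. Levels of other cell types differed widely between libraries of 1 group. The sum of 12 peripheral nerve markers ran from 78.6 to 2509 CPM in normal libraries, from 1608 to 6507 CPM at 1 h and from 224 to 6343 CPM at 4 h. The sum of 7 adipocyte markers ran from 400.3 to 2291 CPM, from 792 to 2039 CPM and from 298 to 977 CPM. These are whole pieces of artery, so fewer cells of a type and less RNA per cell cannot be told apart.

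The promoters of 4 of the 5 genes were in the RefSeq promoter table of assembly GRCr8, each running from 250 bases before the start of the gene to 50 bases after it, and Cebpd had no entry. Those of Cebpb, Cebpg and Cebpa are printed because these genes had, in the same libraries, the largest difference between groups, nearly level values and the widest spread between libraries. The Cebpb promoter lies at chr3:176816755-176817054 on the plus strand, that of Cebpg at chr1:96829687-96829986 on the minus strand and that of Cebpa at chr1:96896334-96896633 on the plus strand. Capitals mark the CRE half-site TGACG and the TATA box TATAAA in Cebpb, the CCAAT box in Cebpg and the TATA box in Cebpa. Each motif was searched on both strands.
Cebpb: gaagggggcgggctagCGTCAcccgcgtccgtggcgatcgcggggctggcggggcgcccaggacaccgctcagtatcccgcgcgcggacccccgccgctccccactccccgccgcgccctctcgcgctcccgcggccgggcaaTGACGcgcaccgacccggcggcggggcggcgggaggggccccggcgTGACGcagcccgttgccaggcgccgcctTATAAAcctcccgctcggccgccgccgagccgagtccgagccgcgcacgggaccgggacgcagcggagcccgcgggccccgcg
Cebpg: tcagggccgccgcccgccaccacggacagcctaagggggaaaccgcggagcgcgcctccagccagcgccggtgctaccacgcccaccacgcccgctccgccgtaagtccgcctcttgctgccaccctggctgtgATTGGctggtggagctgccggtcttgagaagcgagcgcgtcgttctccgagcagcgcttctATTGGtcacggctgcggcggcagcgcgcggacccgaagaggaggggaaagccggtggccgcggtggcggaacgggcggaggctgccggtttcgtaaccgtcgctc
Cebpa: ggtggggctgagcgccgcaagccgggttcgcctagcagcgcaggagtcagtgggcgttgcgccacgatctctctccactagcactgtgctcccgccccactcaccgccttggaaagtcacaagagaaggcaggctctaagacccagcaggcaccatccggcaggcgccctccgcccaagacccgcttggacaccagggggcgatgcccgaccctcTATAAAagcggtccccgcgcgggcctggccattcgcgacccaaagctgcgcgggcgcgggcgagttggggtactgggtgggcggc

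Cebpb held the CRE half-site, the short form of the site bound by CREB and ATF factors, at 234, 107 and 61 bases before the start and the TATA box 33 bases before it. Of 33469 promoters of the same length, 21.2% held at least 1 such half-site, 1.11% held 3 or more and 14.2% held the TATA box. Cebpg held no TATA box and had CCAAT boxes 116 and 55 bases before the start, and 37.5% of promoters held at least 1. Cebpa had its TATA box 35 bases before the start. Cebpz, whose promoter is not printed, had a single CRE half-site 43 bases before the start and the C/EBP site TTGCNNAA, which 10.6% of promoters held, 180 bases before it. The Cebpb promoter was 81% G and C with 56 CG pairs, against medians of 51.7% and 7 over all promoters. A match in these windows is a description of letters only.

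The 2 inducible members, Cebpb and Cebpd, were higher than normal at both stages of ischemia. The mean of Cebpd was highest at 1 h, but its 1 h and 4 h libraries overlapped. Cebpg was nearly level and Cebpa varied more within groups than between them. No member passed the test in any comparison by edgeR's quasi-likelihood F-test, which required an adjusted p under 0.05 and a fold above 1.5. It called 0.0581% of all genes at 1 h, 0.0904% at 4 h, 0% between 4 h and 1 h and 0.0388% over all 3 groups. Before adjustment, 2 of the 5 members (Cebpb and Cebpd) had p under 0.05 with a higher level at 1 h, where 7.98% of all genes did. At 4 h these were 3 of the 5 (Cebpb, Cebpd and Cebpz), where 5.07% of all genes did. None had p under 0.05 between 4 h and 1 h, where 2.58% of genes did in either direction.

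**Figure D1:**
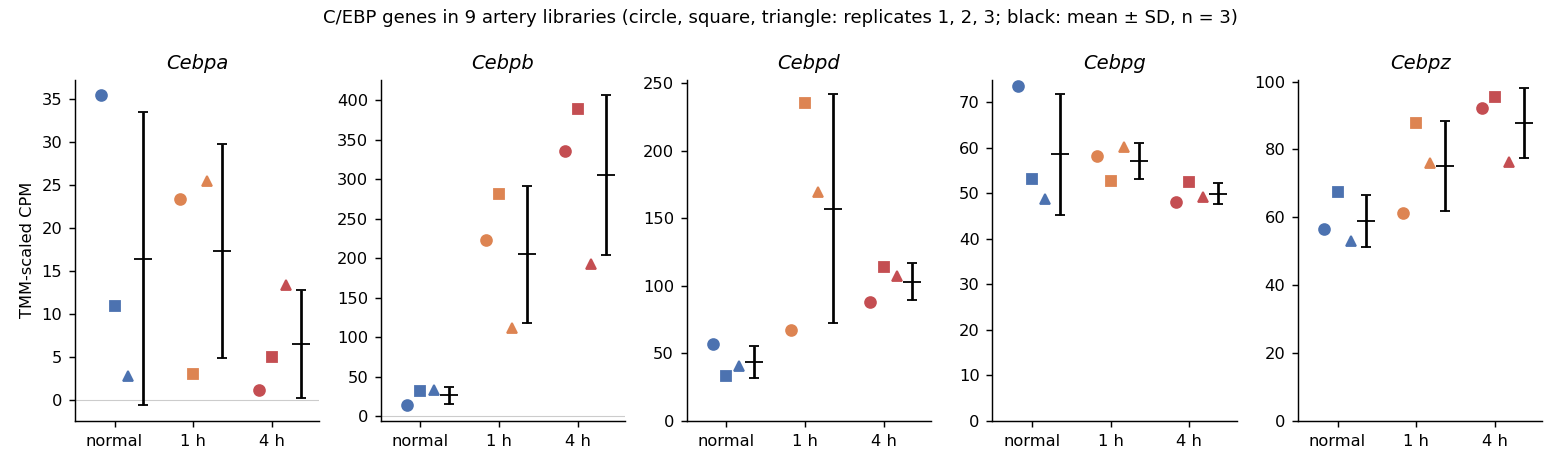
TMM-scaled CPM of each C/EBP gene (vertical axes, one scale per gene) in the normal, 1 h and 4 h libraries, with 1 symbol per library and the mean ± SD (n = 3) in black. All 6 ischemic libraries sat above all 3 normal ones for Cebpb (at least 111 against at most 32.9 CPM) and Cebpd (at least 66.9 against at most 56.9 CPM).

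C/EBPβ is made from an intronless gene that many cells switch on quickly after cytokine, hormone or stress signals. Cebpb stood at 13.6, 31.9 and 32.9 CPM in normal replicates 1, 2 and 3. It stood at 223, 281 and 111 CPM in the 1 h replicates and at 335, 388 and 193 CPM in the 4 h replicates. Every ischemic library was far above every normal library, and the groups did not overlap. The lowest 1 h library was 3.36 times the highest normal one, and the lowest 4 h library 5.85 times. Group means were 26.2 ± 10.9 CPM in normal SMA, 205 ± 86.6 CPM at 1 h and 305 ± 101 CPM at 4 h (SD, n = 3). In each group the library with the least Cebpb (normal replicate 1, 1 h replicate 3 and 4 h replicate 3) was also the one with the lowest smooth muscle marker sum, 11206, 12805 and 24345 CPM, and the highest nerve marker sum, 2509, 6507 and 6343 CPM. At 1 h, replicate 1 had nearly the same nerve marker sum as replicate 3, 6231 CPM, but a Cebpb level of 223 CPM against 111 CPM. The part of tissue composition in the spread of Cebpb was not tested beyond the fits with marker levels.

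At 1 h the Cebpb level was 7.83-fold higher, a log2 fold change of 2.97 (SE 0.49, 95% confidence interval 1.84 to 4.10), with an edgeR adjusted p of 0.117. At 4 h it was 11.7-fold higher, a log2 fold change of 3.54 (SE 0.50, interval 2.39 to 4.70), with an edgeR adjusted p of 0.0614. Both intervals lay well above 0 although neither adjusted p passed the threshold, and by unadjusted p Cebpb ranked 34 at 1 h and 23 at 4 h among 15482 genes. In the test over all 3 groups its edgeR adjusted p was 0.112. The 4 h and 1 h libraries overlapped, with a log2 fold change of 0.57 (SE 0.46, interval -0.47 to 1.62). The call depended on the setting. DESeq2, which called 4.53% of all genes at 1 h, 3.91% at 4 h and 4.32% over all 3 groups, gave Cebpb an adjusted p of 6.31e-07 and 3.53e-10. edgeR with the adipocyte marker level as a covariate gave 0.00832 and 0.0047, where it called 0.207% and 0.62% of all genes. With the nerve marker level it gave 0.0407 and 0.0146, where it called 0.11% and 0.678%. Scaling by library size alone, which called 0.0904% of genes at 4 h, gave Cebpb an adjusted p of 0.039 at that stage. Across all 17 alternatives the log2 fold change stayed between 2.66 and 3.59 at 1 h and between 3.23 and 3.79 at 4 h.

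**Figure D2:**
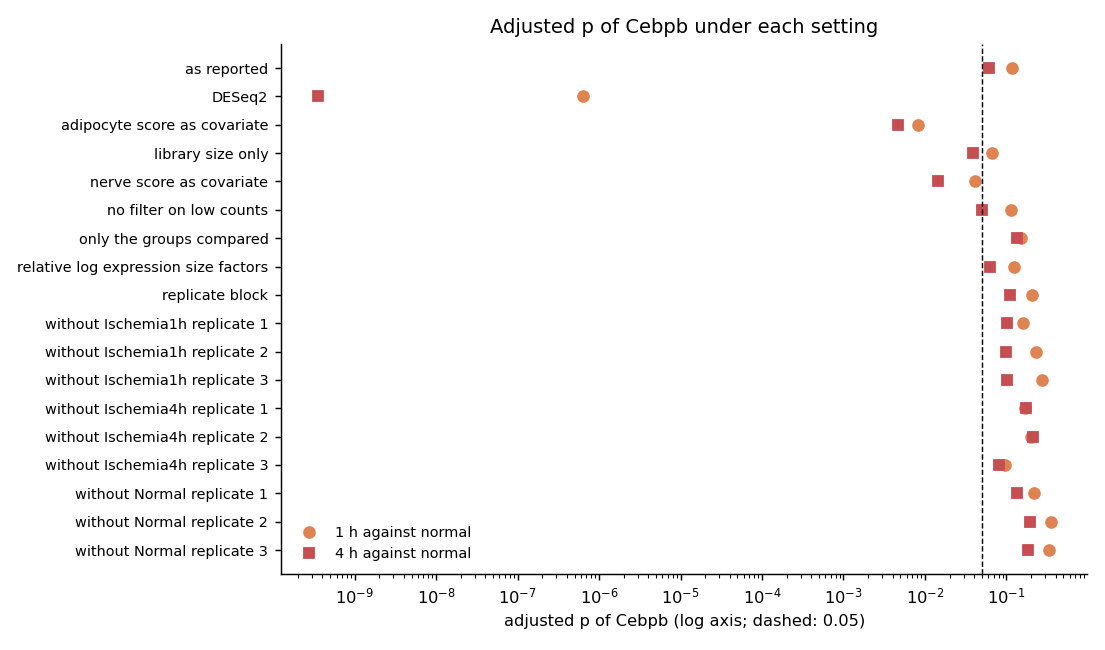
Adjusted p of Cebpb (horizontal log axis, dashed line at 0.05) under the reported fit and each alternative setting (rows), at 1 h (circles) and 4 h (squares). It was under 0.05 in 3 of 17 alternatives at 1 h and in 4 of 17 at 4 h, and in none of the fits that left out a library.

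C/EBPδ is likewise inducible and is known as a target of STAT3 downstream of interleukin-6. Cebpd stood at 56.9, 33.5 and 40.7 CPM in normal replicates 1, 2 and 3. It stood at 66.9, 235 and 169 CPM in the 1 h replicates and at 87.9, 114 and 107 CPM in the 4 h replicates. All 6 ischemic libraries lay above all 3 normal ones, but 1 h replicate 1 did so narrowly, at 1.18 times the highest normal library, while 1 h replicates 2 and 3 were the highest of all. The 4 h libraries were close together, with a mean of 103 ± 13.6 CPM against 157 ± 84.9 CPM at 1 h and 43.7 ± 12 CPM in normal SMA (SD, n = 3).

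The Cebpd level was 3.59-fold higher at 1 h, a log2 fold change of 1.84 (SE 0.43, interval 0.86 to 2.83), with an edgeR adjusted p of 0.188. At 4 h it was 2.36-fold higher, a log2 fold change of 1.24 (SE 0.42, interval 0.27 to 2.20), with an edgeR adjusted p of 0.289. Groups that do not overlap with the ischemic side higher, as for Cebpb and Cebpd at both stages, were seen in 12.8% of all genes at 1 h and in 7.94% at 4 h. Between 4 h and 1 h the log2 fold change was -0.61 (SE 0.42, interval -1.56 to 0.35) and the libraries overlapped. DESeq2 called Cebpd at 1 h (adjusted p 0.00277) and no other alternative did.

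**Figure D3:**
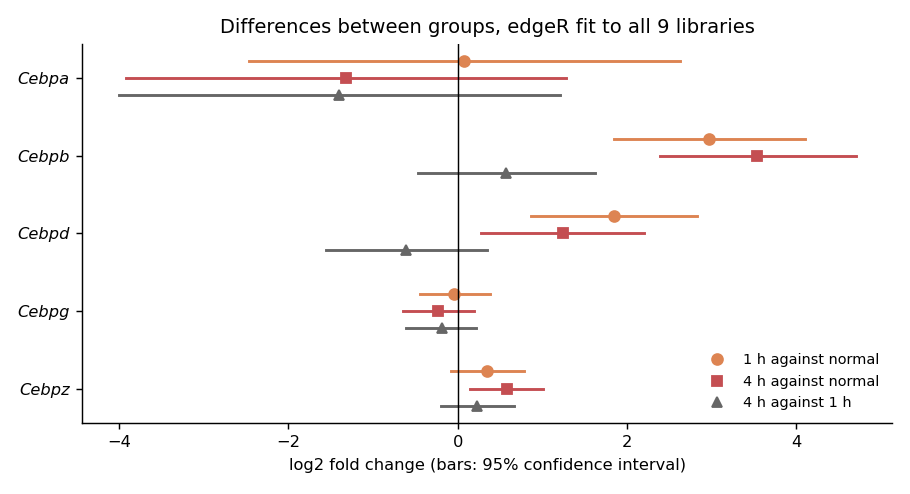
Log2 fold change (horizontal axis) of each C/EBP gene with its 95% confidence interval from the edgeR fit to all 9 libraries, for 1 h against normal, 4 h against normal and 4 h against 1 h. The intervals of Cebpb and Cebpd lay above 0 in both comparisons with normal SMA, that of Cebpz only at 4 h, and that of Cebpa was the widest.

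C/EBPα is the member most tied to fat cells, where it works with PPARγ. Cebpa stood at 35.4, 10.9 and 2.8 CPM in normal replicates 1, 2 and 3. It stood at 23.4, 3.01 and 25.4 CPM in the 1 h replicates and at 1.16, 5.05 and 13.4 CPM in the 4 h replicates. High and low libraries occurred in every group and all groups overlapped. The log2 fold change was 0.07 at 1 h (SE 1.11, interval -2.47 to 2.62) and -1.32 at 4 h (SE 1.13, interval -3.92 to 1.28), with edgeR adjusted p of 0.977 and 0.647. These intervals allow large differences in either direction, and at 4 h the log2 fold change was -0.07 without normal replicate 1 and -2.40 without 4 h replicate 3.

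Cebpa was highest where the adipocyte markers were highest. The 3 libraries with the most Cebpa (normal replicate 1 and 1 h replicates 3 and 1) were also the 3 with the highest adipocyte marker sum, at 2291, 2039 and 1587 CPM. The library with the least Cebpa, 4 h replicate 1, also had the lowest sum, 298 CPM. This order was not particular to adipocyte markers. The same 3 libraries had the highest lymphocyte marker sum (14, 28.6 and 1.54 CPM). Normal replicate 1 and 1 h replicate 3 also had the highest macrophage marker sum (203 and 190.5 CPM). Replicate 1 at 4 h was lowest for macrophage, endothelium and neutrophil markers as well. With the adipocyte marker level as a covariate the Cebpa log2 fold change at 1 h turned to -1.50 (edgeR adjusted p 0.438), and with the nerve marker level to -1.26. The part of fat cells in the Cebpa values was not tested beyond the fit with the adipocyte marker level. That of lymphocytes and macrophages was not tested.

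**Figure D4:**
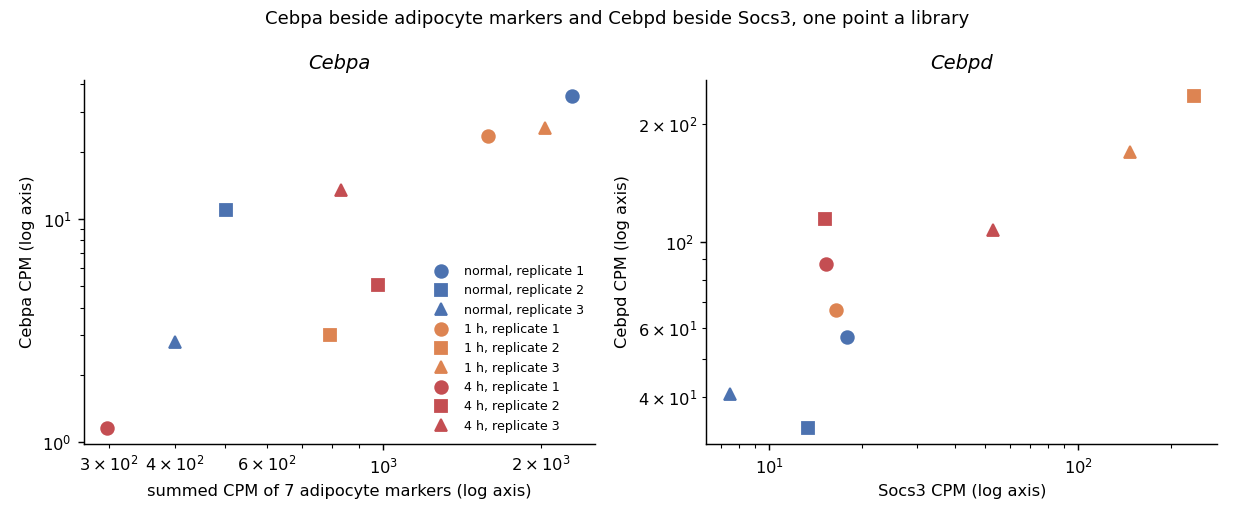
Left, Cebpa CPM against the summed CPM of 7 adipocyte markers, and right, Cebpd CPM against Socs3 CPM, 1 point a library and all axes logarithmic. The highest Cebpa libraries (23.4 to 35.4 CPM) were the highest in adipocyte markers, and both 1 h libraries with the most Cebpd (235 and 169 CPM) had the most Socs3 (237 and 147 CPM). Socs3 was picked because it shared this order, so the right panel is an illustration and no test.

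C/EBPγ is a widely present partner that shapes which dimers form. Cebpg stood at 73.5, 53.2 and 48.7 CPM in normal replicates 1, 2 and 3. It stood at 58.1, 52.6 and 60.2 CPM in the 1 h replicates and at 48, 52.4 and 49.2 CPM in the 4 h replicates. The values lay in a narrow band, and normal replicate 1 was the highest. The log2 fold change was -0.04 at 1 h (SE 0.18, interval -0.45 to 0.38) and -0.23 at 4 h (SE 0.18, interval -0.65 to 0.19), with edgeR adjusted p of 0.928 and 0.621. The fold interval at 1 h was 0.73 to 1.3. The 4 h libraries lay just below all 1 h libraries, as in 3.03% of genes, with a log2 fold change of -0.19 (SE 0.18). Cebpg and Cebpa are neighbours in the RefSeq gene table, and the same 3 libraries ranked first for both. The Pearson correlation of their log2 CPM was 0.779 over the 9 libraries, which share depth and tissue composition, so it is a description only.

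Cebpz stood at 56.5, 67.4 and 52.9 CPM in normal replicates 1, 2 and 3. It stood at 61.4, 87.8 and 76.1 CPM in the 1 h replicates and at 92.2, 95.4 and 76.2 CPM in the 4 h replicates. The 4 h libraries were all above the normal ones, the lowest by 1.13 times, and the 1 h libraries overlapped with both. The level was 1.49-fold higher at 4 h, a log2 fold change of 0.58 (SE 0.19, interval 0.15 to 1.01), with an edgeR adjusted p of 0.268. At 1 h the log2 fold change was 0.35 (SE 0.19, interval -0.08 to 0.78), with an edgeR adjusted p of 0.341. Cebpz overlaps Cebpzos in the RefSeq table, and whether counting used the strand is not given in the sources used here, so reads of these genes cannot be told apart.

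Within each library, Cebpb made up more of the family's counts after ischemia than in normal SMA. Of the summed counts of Cebpa, Cebpb, Cebpd and Cebpg, Cebpb took 7.6%, 24.7% and 26.3% in normal replicates 1, 2 and 3. It took 60%, 49.1% and 30.3% at 1 h and 71%, 69.3% and 53.1% at 4 h. Every ischemic library had a larger Cebpb share than every normal one. The share of Cebpg was 38.9% to 41% in normal SMA, 9.19% to 16.5% at 1 h and 9.36% to 13.6% at 4 h, while its own CPM hardly differed. These shares are of counts and are not scaled by gene length, so only their difference between libraries is read. The ratio of Cebpb to Cebpd counts was 0.24 to 0.954 in normal libraries and 1.79 to 3.81 at 4 h. At 1 h it was 3.33, 1.19 and 0.655 in replicates 1, 2 and 3, so replicate 3 stayed within the normal range while replicates 1 and 2 lay above it.

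Genes around the family were read from 6 lists, of which 111 genes were tested, and edgeR called none of them at 1 h or 4 h. Over all genes, 7.98% at 1 h and 5.07% at 4 h had p under 0.05 with a higher level, and 8.67% and 7.35% with a lower one. The inducing signals list holds cytokines, their receptors and signalling factors that act on C/EBP genes. In it 8 of 20 tested genes had p under 0.05 with a higher level at 1 h and 2 did at 4 h, none had a lower level with such a p, and the median log2 fold change was 0.78 and 0.36 against -0.01 and 0.03 over all genes. DESeq2 called 7 and 2 of them. Of the acute-phase and inflammatory targets, 23 were in the table and 14 of these passed the filter on low counts. Of the 14, 8 genes had p under 0.05 and a higher level at 1 h and 3 did at 4 h, with medians of 2.39 and 1.02, and DESeq2 called 6 and 3. None had a lower level with such a p, but the higher levels were not shared by the whole list. At 1 h the log2 fold change was -1.19 for Itih4, -0.67 for Lbp, -0.34 for Hp, -0.16 for Cp and 0.15 for C3. At 4 h it was -1.01 for Lbp, -0.99 for C3, -0.42 for Cp, 0.27 for Hp and 0.39 for Itih4. Genes near 0 in normal SMA, such as Cxcl2, passed the filter only through the ischemic libraries where they were high, so these counts and medians lean upward by construction and describe the tested genes alone. The same holds for Il6 and Csf3 among the inducing signals, of which 20 of 23 were tested.

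Il6, the cytokine interleukin-6, was at 0, 0.438 and 0.443 CPM in the normal libraries. It was at 2.61, 47.6 and 135 CPM at 1 h and at 0.826, 2.15 and 80.9 CPM at 4 h. Neither ischemic group overlapped with normal, which was a condition for naming the gene. Most of the signal lay in 1 h replicates 2 and 3 and in 4 h replicate 3. The edgeR adjusted p was 0.232 and 0.291, and no fold is given because normal levels were near the limit of counting. Csf3, a growth factor for neutrophils, was at most 0.443 CPM in normal SMA and at 6.35, 29.9 and 61.4 CPM at 1 h and 6.69, 12.5 and 42.1 CPM at 4 h, again highest in replicate 3 (edgeR adjusted p 0.138 and 0.1). Replicate 3 also had the highest nerve marker sum of both ischemic groups. At 1 h, however, replicate 1 had nearly the same nerve sum (6231 against 6507 CPM) and the lowest Il6 and Csf3 of its group. The part of nerve tissue in these levels was not tested beyond the fit with the nerve marker level, which called 1 list gene at 1 h and 3 at 4 h. Socs3, the feedback inhibitor of STAT3 signalling, was picked after its values were seen because it shared the Cebpd order at 1 h. It was at 16.5, 237 and 147 CPM at 1 h, at 15.3, 15.2 and 53.1 CPM at 4 h and at 7.45 to 17.9 CPM in normal libraries. At 4 h, replicates 1 and 2 were thus within the normal range for Socs3, unlike all 4 h libraries for Cebpd. The library with low Socs3 at 1 h, replicate 1, was also the lowest 1 h library for Cebpd and Il6.

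Cxcl1 and Cxcl2 are chemokines that attract neutrophils. Cxcl1 stood at 1.17, 1.02 and 4.58 CPM in normal libraries, at 118, 445 and 604 CPM at 1 h and at 73, 204 and 628 CPM at 4 h. The groups were far apart, with log2 fold changes of 7.43 (SE 1.20) and 7.07 (SE 1.18) and edgeR adjusted p of 0.117 and 0.0712. Cxcl2 was at 0, 0 and 0.0738 CPM in normal libraries, at 8.95, 17.4 and 22.6 CPM at 1 h and at 1.9, 3.98 and 25.1 CPM at 4 h (edgeR adjusted p 0.117 and 0.0721). The 8 neutrophil markers had low summed levels, 1.18 to 3.19 CPM in normal libraries, 1.74 to 6.62 CPM at 1 h and 0.992 to 4.29 CPM at 4 h, and Elane was at 0 in every library. Among them S100a9 stood at 0 to 0.219 CPM in normal libraries, at 0.467 to 0.802 CPM at 1 h and at 0, 0.994 and 0.791 CPM at 4 h. S100a8 was at 0 in all normal libraries and at 0.134 to 0.2 CPM at 1 h. Both were thus above normal in all 1 h libraries, at a few counts each. The other neutrophil markers were not. Mpo was at 0.443 to 2.52 CPM in normal libraries and at 0.534 to 5.01 CPM at 1 h. Csf3r was at 0.0738 to 0.503 CPM in normal libraries and at 0.134 to 0.797 CPM at 1 h. Camp was at 0 to 0.664 CPM in normal libraries and at 0 to 0.0613 CPM at 1 h. Macrophage markers summed to 33.7 to 203 CPM, and the part of either cell type in these results was not tested.

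The amino acid response list holds genes that ATF4 acts on, in part with C/EBPγ. In it 8 of 19 tested genes had p under 0.05 with a higher level at 1 h and 5 did at 4 h, with medians of 0.74 and 0.35, and DESeq2 called 4 at each stage. None had a lower level with such a p, but the higher levels were not shared by the whole list. At 1 h the log2 fold change was -0.65 for Vldlr, -0.11 for Psph, -0.05 for Shmt2, 0.06 for Sesn2 and 0.27 for Slc3a2. At 4 h it was -0.18 for Vldlr, -0.20 for Psph, -0.19 for Shmt2, -0.26 for Sesn2 and -0.11 for Slc3a2. Slc7a5, an amino acid transporter, stood at 7.88, 10.9 and 11.7 CPM in normal libraries and at 59.8, 207 and 111 CPM at 1 h. Its log2 fold change was 3.63 at 1 h (SE 0.60, edgeR adjusted p 0.117) and 1.97 at 4 h (SE 0.56, edgeR adjusted p 0.212). Neither stage overlapped with normal, which at 1 h was a condition for naming the gene. Mthfd2, a mitochondrial enzyme of folate metabolism, stood at 3.86, 17.5 and 5.54 CPM in normal libraries, at 41.2, 51.6 and 43.7 CPM at 1 h and at 73.5, 32.7 and 67.2 CPM at 4 h. Its log2 fold change was 2.35 at 1 h (SE 0.57) and 2.69 at 4 h (SE 0.58), with edgeR adjusted p of 0.206 and 0.122. Ddit4, an inhibitor of mTOR signalling, stood at 64.8, 29.7 and 67.2 CPM in normal libraries and at 227, 379.6 and 185 CPM at 4 h. Its log2 fold change was 2.29 at 4 h (SE 0.45, edgeR adjusted p 0.0981) and 1.87 at 1 h (SE 0.44, edgeR adjusted p 0.195). Cebpg itself differed little in the same libraries, as given above.

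Few partners and regulators of the family had p under 0.05. Of 16 tested, 1 had such a p with a higher level at 1 h and 2 with a lower one, where 7.98% and 8.67% of all genes did. At 4 h these were 1 and 0, where 5.07% and 7.35% of all genes did. Trib1, a pseudokinase that promotes breakdown of C/EBPα protein, was at 3.8, 3.5 and 3.4 CPM in normal libraries and at 13.4, 20.6 and 29.3 CPM at 1 h. Its log2 fold change was 2.56 (SE 0.63, edgeR adjusted p 0.21). At 4 h Trib1 was at 3.55, 3.65 and 16.6 CPM, a log2 fold change of 1.15 (SE 0.61, edgeR adjusted p 0.482). Atf5 and Ddit3, which make zipper proteins that can pair with C/EBPs, had lower levels at 1 h in all 3 libraries. Their log2 fold changes were -0.73 and -0.44 at 1 h (edgeR adjusted p 0.275 and 0.288). At 4 h these were -0.34 and -0.40 (edgeR adjusted p 0.625 and 0.407). Groups that do not overlap with the 1 h side lower were seen in 3 of the 16 genes and in 13.5% of all genes. The 16 adipocyte targets of C/EBPα had no gene with p under 0.05 at either stage, with medians of 0.49 and -0.22.

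Of 26 nucleolar ribosome assembly genes, the setting in which Cebpz is known, 1 had p under 0.05 with a higher and 1 with a lower level at 1 h, and 2 had a higher level at 4 h. The medians were -0.04 and 0.00, near those of all genes. Ddx24, an RNA helicase, was at 55.2, 73.5 and 64.5 CPM in normal libraries and at 127, 105 and 104 CPM at 4 h (log2 fold change 0.80, SE 0.18, edgeR adjusted p 0.149). Rrp1 was higher at 4 h by 0.44 on the log2 scale (SE 0.18, edgeR adjusted p 0.381). Mettl3, an RNA methyltransferase, had a log2 fold change of -0.52 at 1 h (SE 0.19, edgeR adjusted p 0.268). At the other stage the log2 fold changes were 0.39 for Ddx24 and 0.08 for Rrp1 at 1 h, and -0.20 for Mettl3 at 4 h.

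**Figure D5:**
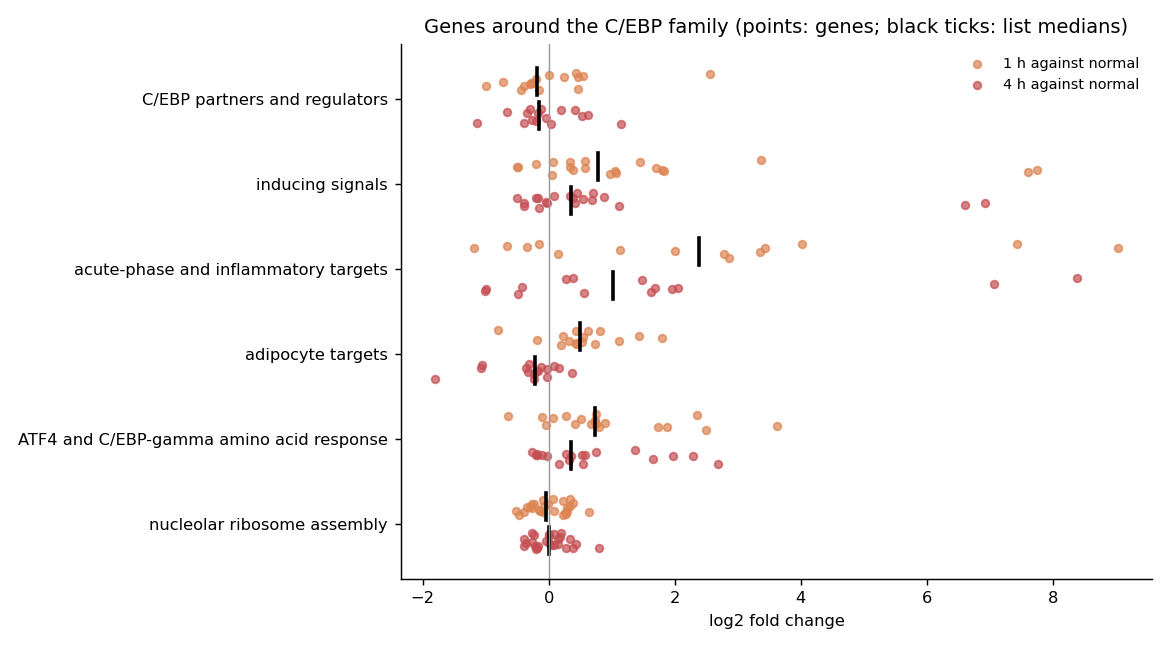
Log2 fold change (horizontal axis) of every tested gene of the 6 lists around the C/EBP family, at 1 h and at 4 h against normal, with list medians as black ticks. The acute-phase and inflammatory targets had the highest medians (2.39 at 1 h and 1.02 at 4 h), and the nucleolar list stayed near 0.

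For each member the genes with the most similar levels over the 9 libraries were found among 10430 genes, by the Pearson correlation of log2 CPM. The libraries share tissue composition and the 3 groups, so these correlations are descriptions. For Cebpb they were Slc25a25, a mitochondrial carrier (r = 0.976), Nfil3, a transcription factor with a basic leucine zipper (0.975), and Gadd45g, a stress-induced gene (0.974). Nfil3 passed the test at both stages and rose by 2.67 at 1 h and 3.29 at 4 h on the log2 scale, with edgeR adjusted p of 0.0164 and 0.00501. Slc25a25 rose by 2.52 at 4 h (edgeR adjusted p 0.0282) and missed the threshold at 1 h. For Cebpd they were Fosl2, a member of the AP-1 factors (0.981), Bzw1 (0.979) and Tle3 (0.978). Fosl2 stood at 16.3, 71 and 46.5 CPM at 1 h, with the same low replicate 1 as Cebpd.

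For Cebpa the genes most alike were Adrb3, the β3 adrenergic receptor of fat cells (r = 0.985), Slc36a2, an amino acid transporter (0.979), and Fam134a (0.954). Adrb3 stood at 28.2, 5.32 and 1.7 CPM in normal replicates 1, 2 and 3 and at 0.331 CPM in 4 h replicate 1. For Cebpg they were Igtp, an interferon-inducible GTPase (0.973), Parp12 (0.956) and Gstz1 (0.934), and for Cebpz they were Ppig (0.98), Utp3, a factor of ribosome assembly (0.972), and Zfand5 (0.97). Among the members themselves, Cebpb and Cebpz were the most alike (0.81).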

How the data were processed

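RNA sequencing was done on 9 SMA libraries, 3 normal, 3 at 1 h and 3 at 4 h of ischemia. The authors deposited raw counts per gene symbol, with no normalization, in 1 table of 37203 symbols, of which 13156 had no count. HISAT2 is named in the submitters' processing notes. The counting program, genome build, annotation and use of strand are not given in the sources used here, and the study's methods also describe Agilent microarrays. All columns matched a sample title. Total counts were 13114273 to 15504240 per library. Between any 2 libraries the chi-square of the counts was at least 32.2 times its degrees of freedom, so none was a copy. The study's text does not settle whether each library came from a separate rat, so p-values measure the spread between these samples, which may be in part technical.

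Genes were filtered with filterByExpr, scaled with TMM (factors 0.814 to 1.22) and fitted with edgeR 4.0.16 in R 4.3.3 (glmQLFit and glmQLFTest) over all 9 libraries with group as the term. Benjamini-Hochberg adjustment ran over all 15482 genes tested, tests were two-sided, and calls needed an adjusted p under 0.05 together with a fold above 1.5. Log2 CPM used a prior count of 2. SE is the log2 fold change over the square root of F. The scripts were checked on simulated data. DESeq2 1.42.0, other scalings, no filter, only the groups compared, a replicate block, marker covariates and leaving out each library were the alternatives.

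The members and lists were chosen with earlier results of these data known. Named were every member, the called genes of each list with up to 2 higher and 2 lower genes per stage (the largest changes with unadjusted p under 0.05 and groups that did not overlap), and per member the 3 genes of highest correlation with a mean of at least 5 CPM. Socs3 was named outside this rule, after its values were seen. Sequences are from RefSeq, assembly GRCr8, and no coordinates were used with the counts.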

Additional observations from a re-analysis of the deposited data

How the results depend on the processing

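Of the member results, Cebpb, Cebpd and Cebpz kept their direction against normal at both stages under all 17 alternatives. Cebpa and Cebpg did so at 4 h only. DESeq2 called 2 members at 1 h, 1 at 4 h and 2 over all 3 groups. The adipocyte covariate and the nerve covariate each called 1 in these 3 comparisons, and library size alone called 1 at 4 h. Over all 3 groups these covariates called 0.181% and 0.194% of all genes. In log2 fold change, Cebpb was called at 1 h under DESeq2 (2.98), the adipocyte covariate (3.59) and the nerve covariate (3.57). At 4 h it was called under DESeq2 (3.55), the adipocyte covariate (3.59), the nerve covariate (3.58) and library size alone (3.37). Cebpd was called at 1 h under DESeq2 (1.87). Leaving out a library gave Cebpb 2.66 to 3.24 at 1 h and 3.23 to 3.79 at 4 h, and Cebpd 1.43 to 2.21 and 1.10 to 1.47, with no call. The sign turned for Cebpa at 1 h with the adipocyte covariate (-1.50), the nerve covariate (-1.26) and the replicate block (-0.19). Without a library, Cebpa at 1 h ran from -0.42 to 1.33, negative without 1 h replicate 1 or 3 or normal replicate 2 or 3. At 4 h Cebpa ran from -2.40 to -0.07. Cebpg at 1 h ran from -0.15 to 0.16, positive without 1 h replicate 2 or normal replicate 1. Between 4 h and 1 h, the adipocyte covariate turned Cebpa to 0.19 and Cebpb to -0.0008. The cause was not tested. Of the list genes, DESeq2 called 18 at 1 h and 10 at 4 h, the nerve covariate 1 and 3, and the replicate block 2 and 1, and leaving out a library 0 to 1 at 1 h (1 without 4 h replicate 3). Over all genes, DESeq2 called 702 at 1 h and 606 at 4 h against 9 and 14 by edgeR, and the adipocyte covariate 32 and 96. The nerve covariate called 17 and 105, and the replicate block 7 and 7. Library size alone put the median of all genes at -0.15 at 4 h, against 0.03 as reported.

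Same-numbered libraries deviated together from their group means for replicate 2 (correlations of 0.282 to 0.623) but not for every pair of replicate 1 (-0.651 to -0.021) or replicate 3 (-0.157 to 0.66). The labels tie no number to an animal, day or batch, so the number was not taken as pairing the samples, which these values do not settle. With the replicate block Cebpb was at 2.90 and 3.49 (edgeR adjusted p 0.205 and 0.112), and no member was called.

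There were 3 libraries a group, and the common biological coefficient of variation over all genes was 51.6%. At 4 h neither the small difference of Cebpz (1.49-fold) nor the large one of Cebpb (11.7-fold) passed after adjustment. The fold of Cebpz was also under the 1.5 that a call needed. The reason for the adjusted p values was not tested. Low genes such as Il6 rested on few counts in normal SMA.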
